A study of Homo sapiens with 18 samples.

Results

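The 38 HOX genes described here are protein-coding genes of the HOXA, HOXB, HOXC and HOXD clusters, chosen by name (HOX, a cluster letter and a paralogue number) from 20098 annotated protein-coding genes on chromosomes 1 to 22 and X. There were 10 genes of HOXA, 10 of HOXB, 9 of HOXC and 9 of HOXD. ChIP-seq for linker histones H1.2 and H1.5 was done in HL-60/S4, a single established human myeloid leukemia line, untreated and undifferentiated in every group, so the values describe that line alone. In xChIP, formaldehyde-fixed chromatin was sonicated before the antibody was added, whereas in xxChIP the antibody was bound inside fixed and permeabilized cells and held by a further fixation before sonication. Each protocol was used with rabbit polyclonal anti-H1.2 and with anti-H1.5, which gave 4 groups of 3 replicates; 6 Input samples were not used here. For each group the authors merged the peaks of the 3 replicates into 1 list of positions (hg19) without a score or read number, so read depth is unknown, no spread between replicates could be given, and every comparison below is a description of 4 lists without a test.

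HOX proteins are homeodomain transcription factors that give cells of the embryo their position along the body axis. The genes lie in the same orientation within each cluster, in the order of their expression along that axis, with low-numbered (anterior) genes at the 3' end and high-numbered (posterior) genes at the 5' end. Polycomb complexes keep HOX clusters silent and compacted in cells that do not use them, and trithorax proteins keep them active; in myeloid cells HOXA9 and HOXA10 support progenitor growth, and both are commonly overexpressed in acute myeloid leukemia. Linker histones bind the nucleosome where DNA enters and leaves and help to compact chromatin. A peak here is a region in which an antibody enriched DNA with the exposed H1 epitope.

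The whole lists held 138491 to 143193 peaks and covered 26.4% (xChIP H1.2), 16.3% (xChIP H1.5), 20.2% (xxChIP with H1.2) and 17.2% (xxChIP with H1.5) of known sequence. A region is called covered below where its bases lie under a peak, and the transcription start site (TSS) of a gene is the 5' end of its annotated gene. All positions are 1-based and refer to GRCh37, the sequence of hg19.

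Pooled over their full span, the HOX clusters were about as covered by xChIP H1.2 peaks as the genome was. With HOXB bounded by HOXB1 to HOXB9 they were less covered, at 20.0% against 26.4%. By the other lists they were much less covered than the genome. From the first to the last base of the HOX genes, the clusters span 515.35 kb, and xChIP H1.2 peaks covered 25.7% of it. For xChIP H1.5 the share was 6.69%. The xxChIP peaks covered 4.53% with H1.2 and 3.25% with H1.5. The clusters held 37 peaks of xChIP H1.2, 17 of xChIP H1.5 and 9 of each xxChIP list. No base of the clusters lay under 3 or 4 lists, a share that was not computed for the genome. Of the cluster bases, 64.0% lay under none, against 46.8% of the genome. Bases under xChIP peaks alone made up 28.7% of the clusters and 24.7% of the genome, whereas bases under xxChIP peaks alone made up 4.92% and 19.5%. Both protocols covered 2.38% of cluster bases and 9.06% of the genome. GC content differed as well, at 49.3% to 52.6% in the clusters and 40.9% in the genome, and its part in these shares was not tested.

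**Figure D1:**
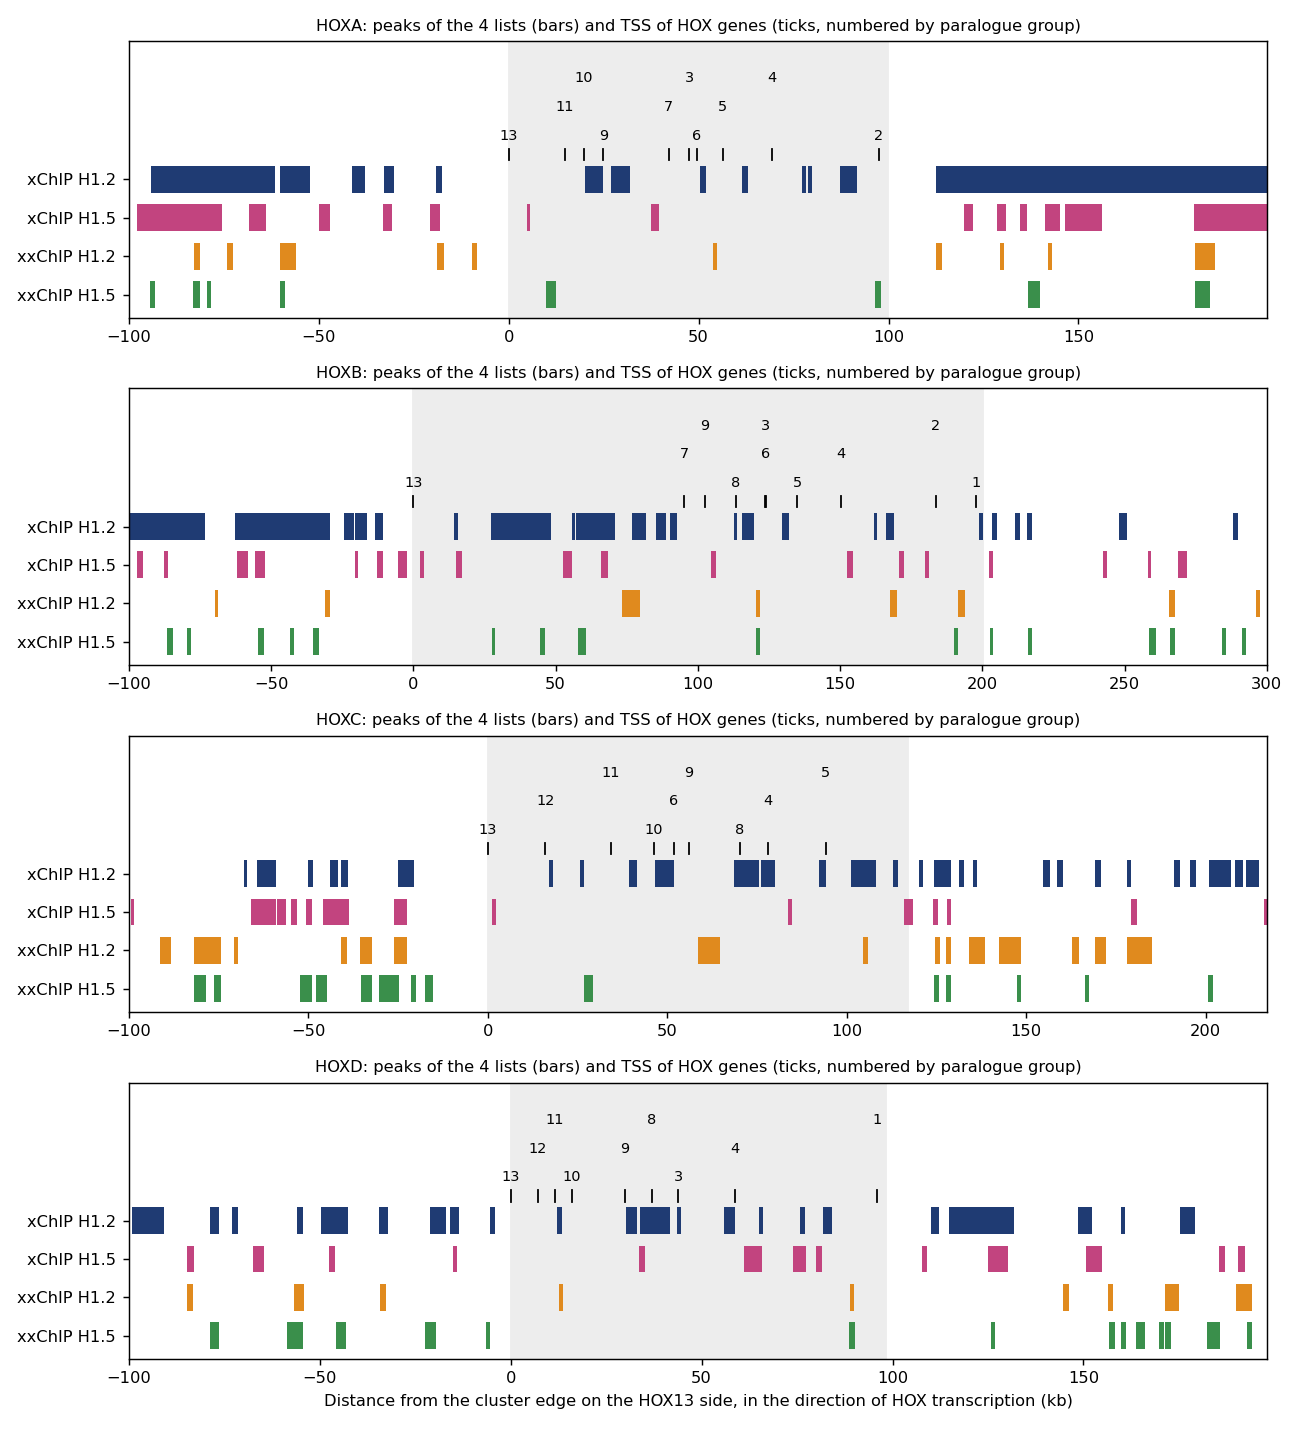
Peaks of the 4 lists (colored bars, rows) across each HOX cluster (grey) and 100 kb on either side, drawn along the direction of HOX transcription; the x axis is the distance in kb from the cluster edge on the HOX13 side, and ticks mark the TSS of each HOX gene by paralogue number. The HOXA cluster lies between long xChIP peaks, of which the longest spans 96.391 kb, and holds only 1 xxChIP H1.2 peak and 2 xxChIP H1.5 peaks.

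Each cluster had its own mixture. HOXA (chr7:27139973-27239710) had 7 xChIP H1.2 peaks covering 19.2%, 2 xChIP H1.5 peaks covering 3.14%, 1 xxChIP H1.2 peak covering 1.06% and 2 xxChIP H1.5 peaks covering 4.26%. HOXB (chr17:46605888-46806112) had 13 peaks covering 30.6%, 8 covering 8.24%, 4 covering 6.31% and 5 covering 4.25%, in the same order of lists. It thus had the highest xChIP H1.2 share of the 4 clusters. HOXC (chr12:54332615-54449814) had 9 peaks covering 26.0%, 3 covering 3.07%, 2 covering 6.43% and 1 covering 2.11%. HOXD (chr2:176957449-177055635) had 8 peaks covering 21.7%, 4 covering 11.5%, 2 covering 2.17% and 1 covering 1.55%. As a ratio of highest to lowest, the clusters differed most in xChIP H1.5, which was highest in HOXD, and in xxChIP H1.2, which was lowest in HOXA. Among 281316 genome windows as long as HOXA, only 1.46% had a lower xxChIP H1.2 share, while 51.5% had a lower xChIP H1.2 share. For HOXB, 71.6% of windows of its length were lower in xChIP H1.2 and 9.96% in xxChIP H1.2. For xChIP H1.5, 3.08% of windows were lower than HOXC and 38.7% were lower than HOXD.

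The high xChIP H1.2 share of HOXB came from a stretch without HOX genes. The 9 clustered genes from HOXB1 to HOXB9 span 105.047 kb, of which xChIP H1.2 peaks covered 12.4%. The 91.19 kb between them and HOXB13, which hold the long noncoding RNAs LINC03057 and LINC02086, had a share of 52.9% and included peaks of 20.926 kb and 13.984 kb. The HOXB13 gene itself, which acts in prostate development, had no xChIP H1.2 base and was covered to 32.6% by an xChIP H1.5 peak. For xChIP H1.5 the HOXB1 to HOXB9 and intervening stretches were much closer, at 7.24% and 8.32%, and for xxChIP H1.2 at 6.00% and 6.93%. xxChIP H1.5 peaks covered 2.69% of HOXB1 to HOXB9 and 6.24% of the intervening stretch. GC content was 52.3% in HOXB1 to HOXB9 and 45.6% in the stretch towards HOXB13.

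The flanks were more covered than the clusters when all 4 were pooled. Over 100 kb on each side, xChIP peaks covered 40.3% with H1.2 and 19.0% with H1.5, and each xxChIP list covered 11.1%. Cluster minus flanks was -14.6 percentage points (H1.2) and -12.4 (H1.5) for xChIP, and -6.53 (H1.2) and -7.85 (H1.5) for xxChIP. HOXA set much of the xChIP difference. xChIP H1.2 peaks covered 48.3% of its flank on the HOX13 side and 87.1% of that on the HOX1 side, and leaving HOXA out the pooled difference was -3.92 points for xChIP H1.2 and -5.40 points for xChIP H1.5. The HOX1-side flank lay mostly under 1 xChIP H1.2 peak of 96.391 kb (chr7:27030728-27127118), which reached into SKAP2, an adaptor protein gene of immune cells. HOXB was asymmetric, with xChIP H1.2 covering 70.9% of the flank beside HOXB13 and 9.88% of that beside HOXB1. On the HOXB13 side lies the tubulin glutamylase gene TTLL6, whose body was covered to 81.2%. For HOXC, where "HOX1 side" means the HOXC4 side, the cluster exceeded its flanks by 2.87 points for xChIP H1.2 and differed from them by -16.6 points for xxChIP H1.2. For HOXD the xChIP H1.5 share of the cluster was 0.481 points above that of the flanks, and for xxChIP H1.5 the difference was -11.9 points. The direction depended on which flank or flank length was taken in HOXB for both xChIP lists, in HOXC for xChIP H1.2, in HOXD for xChIP H1.5 and in HOXA for xxChIP H1.5. GC content of the flanks was 38.9% to 49.2%, below that of the adjoining cluster in every case, and its part in the differences was not tested.

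**Figure D2:**
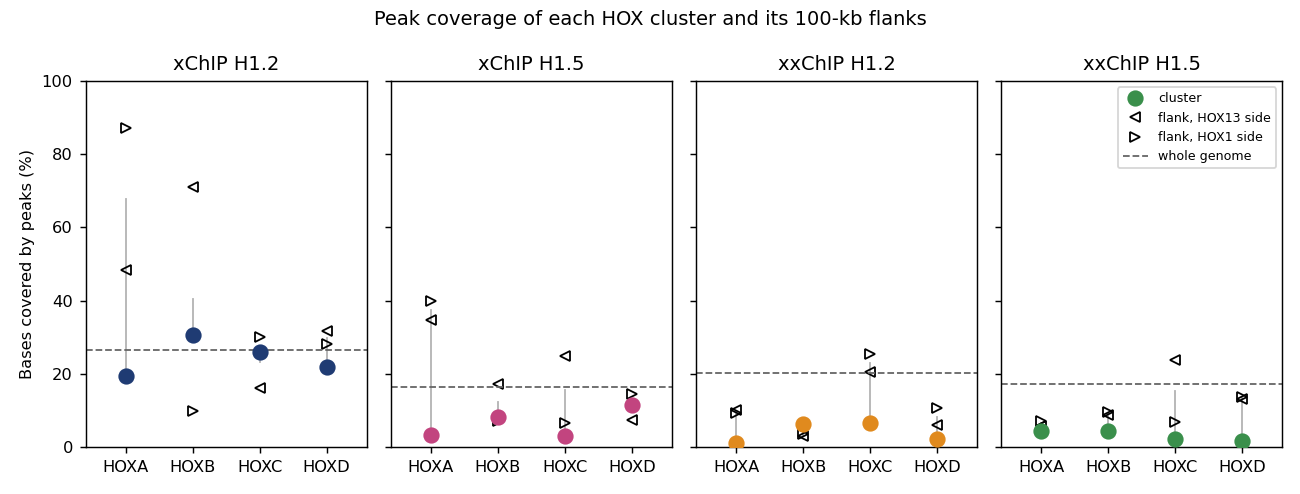
Share of bases covered by peaks (y axis, %) for each cluster (filled circles), the 100-kb flank on the HOX13 side (left-pointing triangles) and that on the HOX1 side (right-pointing triangles), in 1 panel per list; the grey line runs from the cluster to the mean of both flanks and the dashed line is the whole genome. HOXA lies far below its flanks for xChIP H1.2 (19.2% against 48.3% and 87.1%), and every cluster lies below the genome value for xChIP H1.5 and both xxChIP lists.

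Within the clusters the lists of 1 protocol shared smaller parts of their bases than over the genome. A shared part depends on how much the other list covers, and the lists covered less of the clusters than of the genome. For xxChIP H1.5 this was 3.25% against 17.2%, and for xChIP H1.5 6.69% against 16.3%. The shared parts were not adjusted for this. In the clusters the xChIP lists shared 6598 bp, which was 4.99% of the xChIP H1.2 bases and 19.1% of the xChIP H1.5 bases there. Over the genome these shares were 33.9% and 54.8%. The xxChIP lists shared 2466 bp with each other, 10.6% and 14.7% of each, against 43.7% and 51.3% over the genome. Between protocols, xChIP H1.2 peaks held 27.5% of the xxChIP H1.2 bases of the clusters and 34.9% of the xxChIP H1.5 bases. Over the genome they held 21.8% and 23.4%. For xxChIP H1.5 the higher value came from HOXB, with 5686 bp shared, against 152 bp in HOXC and 0 bp in HOXA and HOXD. All of these HOXB bases lay in the stretch without HOX genes. For xxChIP H1.2 the part held was 0% in HOXA, 33.5% in HOXB, 18.6% in HOXC and 37.1% in HOXD. xChIP H1.5 shared no base with either xxChIP list in any cluster, where those lists covered 4.53% (H1.2) and 3.25% (H1.5). Over the genome 21.0% of its bases lay under xxChIP H1.2 peaks and 19.4% under xxChIP H1.5 peaks. These shares were near the 20.2% and 17.2% of known sequence that those lists covered. In HOXA no pair of lists shared a base. The 2466 bp shared by both xxChIP lists came from 2 places. One of 1444 bp lay upstream of HOXB6 (chr17:46684176-46685619), partly inside the 3' end of the HOXB7 gene model, and one of 1022 bp lay between HAGLROS and HOXD1.

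The promoters of HOX genes were in the reach of xChIP H1.2 peaks only, with 1 exception. A promoter window is the 2001 bp from 1000 bp before to 1000 bp after the TSS, and it counts as overlapped from 1 shared bp. xChIP H1.2 peaks overlapped 14 of 38 HOX windows, while over all protein-coding genes 48.2% of windows were overlapped. xChIP H1.5 peaks overlapped 0 of 38, against 21.6% of all windows. xxChIP H1.2 peaks overlapped 0 of 38, against 8.78%. xxChIP H1.5 peaks overlapped 1 of 38, against 7.92%. HOX promoter windows were GC-rich, with a median GC content of 58.5%, and 23 of 38 were CpG-rich (at least 50% GC, with observed CpG at 0.6 of expectation or more) against 46.9% of all windows. Among the 9433 CpG-rich windows xChIP overlapped 51.7% with H1.2 and 21.5% with H1.5, and xxChIP overlapped 3.73% with H1.2 and 2.71% with H1.5. The HOX counts for the xxChIP lists were therefore close to the level of CpG-rich promoters, and that for xChIP H1.5 was below it. By protocol, 14 HOX genes had xChIP peaks alone (48.5% of all genes), 1 had an xxChIP peak alone (6.86%), 0 had both (6.77%) and 23 had neither (37.9%). The same patterns took 54.7%, 2.39%, 3.27% and 39.7% of CpG-rich promoters. A peak covered at least 50% of the window in 7 HOX genes for xChIP H1.2 (36.8% of all genes) and in 1, HOXA2, for xxChIP H1.5 (3.64%), and in 0 for xChIP H1.5 (10.3%) and for xxChIP H1.2 (3.67%).

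**Figure D3:**
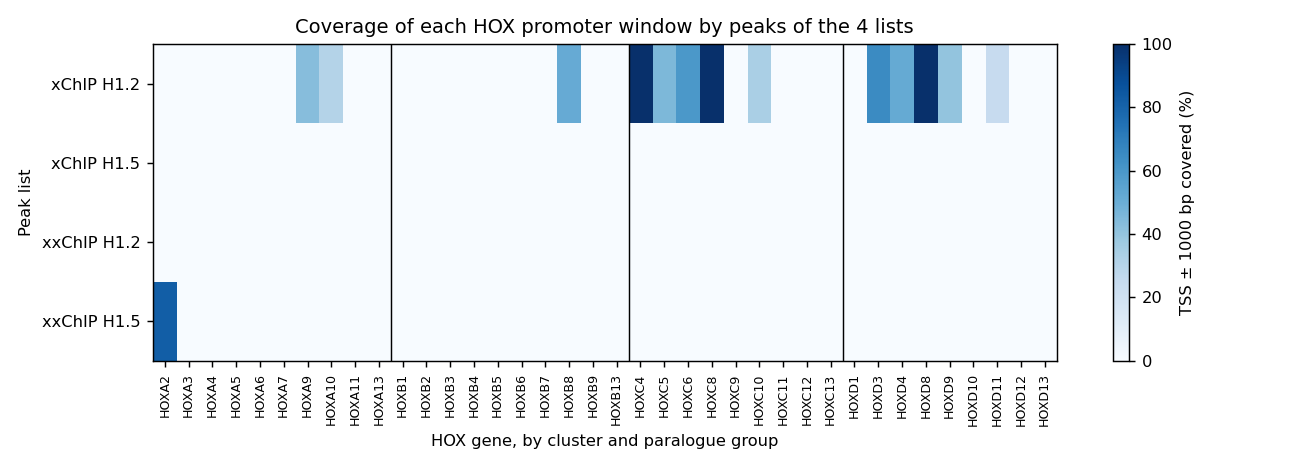
Share of each HOX promoter window (TSS ± 1000 bp, color scale in %) covered by peaks of the 4 lists (rows) for the 38 genes (columns, by cluster and paralogue number, with lines between clusters). Color is confined to the xChIP H1.2 row, apart from HOXA2 in the xxChIP H1.5 row at 82.3%; HOXA6, overlapped by 2 bp, appears blank.

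The sequences of 3 promoters are given as single examples of windows with and without peaks, and need not be typical of either. They run from 270 bases before the TSS to 30 bases from it, in the direction of transcription, with CG dinucleotides in capitals: HOXD8 because an xChIP H1.2 peak covered its whole window, HOXA2 because it alone had an xxChIP peak, and HOXA13 because no peak of any list lay within its window.
HOXD8, chr2:176994152-176994451 (+ strand): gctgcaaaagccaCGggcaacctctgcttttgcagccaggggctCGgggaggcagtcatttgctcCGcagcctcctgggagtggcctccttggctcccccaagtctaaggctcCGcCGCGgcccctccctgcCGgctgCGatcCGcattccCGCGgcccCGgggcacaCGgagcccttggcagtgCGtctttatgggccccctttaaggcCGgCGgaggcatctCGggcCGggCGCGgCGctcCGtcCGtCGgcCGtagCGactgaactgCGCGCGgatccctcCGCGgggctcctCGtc
HOXA2, chr7:27142276-27142575 (- strand): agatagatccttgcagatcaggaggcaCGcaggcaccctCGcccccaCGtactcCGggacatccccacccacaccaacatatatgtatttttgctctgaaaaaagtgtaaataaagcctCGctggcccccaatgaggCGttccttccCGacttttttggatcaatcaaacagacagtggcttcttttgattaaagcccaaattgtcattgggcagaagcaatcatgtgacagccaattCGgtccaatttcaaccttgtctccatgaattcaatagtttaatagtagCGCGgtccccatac
HOXA13, chr7:27239681-27239980 (- strand): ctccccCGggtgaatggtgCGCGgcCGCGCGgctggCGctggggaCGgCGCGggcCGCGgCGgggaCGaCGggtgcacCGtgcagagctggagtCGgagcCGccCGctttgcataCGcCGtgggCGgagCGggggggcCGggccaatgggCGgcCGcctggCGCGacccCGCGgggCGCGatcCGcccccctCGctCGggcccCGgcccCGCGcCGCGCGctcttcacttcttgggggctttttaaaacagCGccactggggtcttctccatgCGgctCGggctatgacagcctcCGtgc
These 300 bases held 32 CG dinucleotides in HOXD8, 10 in HOXA2 and 45 in HOXA13. The median was 14.5 over the HOX genes (3 to 45) and 17 over all protein-coding genes, 97.5% of which had at least 1. HOXD8 and HOXA13 are thus both CG-dense, with a GC content of 71.0% and 76.3%, and stand at opposite ends for xChIP H1.2. HOXA2, at 47.0%, was the poorest in GC of the 3.

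The anterior genes, paralogue groups 1 to 3, act in the hindbrain, neck and head. An xChIP H1.2 peak lay at the promoter of 1 of these 7 genes, against 48.2% of all protein-coding genes. The gene was HOXD3, and the peak covered 65.0% of its window. HOXA2, which patterns the hindbrain and neural crest of the jaw region, was the only HOX gene with an xxChIP peak at its promoter. The whole xxChIP H1.5 peak, 1647 bp at chr7:27141595-27143241, lay inside the window, covering 82.3% of it, 30.5% of the gene body and 34.7% of the coding bases. The other lists had 0 bp there, and the nearest xChIP H1.2 peak was 5650 bp from the TSS. HOXB1, a hindbrain segment gene, had an empty window in all 4 lists, yet an xChIP H1.2 peak over its 3' part covered 55.9% of the gene body and began 1096 bp from the TSS. HOXD1 had no covered base in window or gene body in any list, and its nearest peak of any list was an xxChIP H1.5 peak 5755 bp away.

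The central genes, groups 4 to 8, pattern the neck and trunk. Of these 15 genes 8 (53.3%) had an xChIP H1.2 peak at the promoter, near the 48.2% of all protein-coding genes. HOXC4, HOXC8 and HOXD8 had 100% of their windows under xChIP H1.2 peaks. In HOXC4, which also acts in B lymphocytes, 30.1% of the long gene body was covered by that list, 6.41% by xChIP H1.5 and 3.58% by xxChIP H1.2. HOXC8, a trunk gene acting in the ribs and spinal motor neurons, was also covered over 100% of its gene body by a peak of 6854 bp. HOXD8 was likewise covered over 100% of its gene body, by a peak of 7793 bp (chr2:176991335-176999127). Its start was overlapped by an xChIP H1.5 peak that ended 1826 bp before the HOXD8 TSS. HOXB8, a gene of thoracic patterning and of myeloid progenitor growth, was the only HOXB gene with a peak in its promoter window. This was a 1026-bp xChIP H1.2 peak that covered 51.3% of the window. It was not the only one when any annotated start within 1000 bp of a peak was counted. By that count HOXB1, HOXB6 and HOXB7 also had xChIP H1.2 peaks, HOXB3 an xChIP H1.5 peak and HOXB7 peaks of both xxChIP lists. At the gene start used here, all 3 members of paralogue group 8 had an xChIP H1.2 peak at the promoter, the only group of which this was true. Counting any annotated start within 1000 bp of a peak, it was also true of group 6 (HOXA6, HOXB6 and HOXC6). Each paralogue group holds only 2 to 4 of the genes reported. At the other end of the count, HOXA6 shared only 2 bp with its peak. HOXA4, HOXA5, HOXA7 and HOXB5 had no covered base in window or gene body in any list.

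The posterior genes, groups 9 to 13, pattern the lumbar and sacral axis, the limbs and the urogenital tract. xChIP H1.2 peaks overlapped the windows of 5 of 16, namely HOXA9, HOXA10, HOXC10, HOXD9 and HOXD11, against 48.2% of all protein-coding genes. None of the 4 genes of group 13 had a peak in the window, nor did 37.9% of all protein-coding genes. HOXA13, which acts in limb and urogenital development, was 17560 bp from the nearest xChIP H1.2 peak, the longest such distance of the HOX genes. For HOXC9, which acts in the thoracic spinal cord and ribs, the xChIP lists had no base in window or gene body, while an xxChIP H1.2 peak of 6133 bp (chr12:54391288-54397420) covered 69.1% of the gene body and 100% of its coding bases. It lay 2609 bp beyond the TSS and also held the antisense RNA HOXC-AS1.

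HOXA9 and HOXA10 shared 1 xChIP H1.2 peak. It spans 4559 bp (chr7:27214937-27219495) and lies between their annotated starts, so that it covered 43.1% of the HOXA9 window and 30.8% of the HOXA10 window. Neither TSS was inside it, being 138 bp and 385 bp away. The HOXA9 start used here, 1 of 7 annotated, lies inside the HOXA10 gene model. The HOXA9 window is thus HOXA10 sequence as well, and its overlap is not particular to HOXA9. Another xChIP H1.2 peak of 5105 bp (chr7:27207698-27212802) lay over the 3' exons of HOXA10, the antisense RNA HOXA10-AS and MIR196B. That peak alone covered 40.1% of the HOXA9 gene body, and both together covered 73.9% of the HOXA10 gene body. Neither xxChIP list had a base in either gene or window, with the nearest xxChIP H1.5 peaks at 12404 bp and 7323 bp. Coding bases were less covered than the gene bodies, at 0% for HOXA9 and 22.7% for HOXA10. xChIP H1.5 covered 1.87% of the HOXA9 gene body and none of HOXA10.

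Distances from the TSS gave the same picture on another scale. The median distance from a HOX TSS to the nearest xChIP H1.2 peak was 2992 bp, against 1144 bp over all protein-coding genes. For xChIP H1.5 the medians were 10876 bp and 4480 bp. For xxChIP they were 12550 bp and 7249 bp with H1.2, and 17540 bp and 8576 bp with H1.5. The TSS itself lay inside an xChIP H1.2 peak in 7 of 38 HOX genes and 36.6% of all genes. No HOX TSS lay inside an xChIP H1.5 peak (10.2% of all genes) or an xxChIP H1.2 peak (3.66%), and that of HOXA2 alone lay inside an xxChIP H1.5 peak (3.63%). For the xxChIP lists these counts were near the share over all genes. The nearest xChIP H1.5 peak to any HOX TSS was 1251 bp away, in the intron of HOXC13, a gene of hair and nail development.

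**Figure D4:**
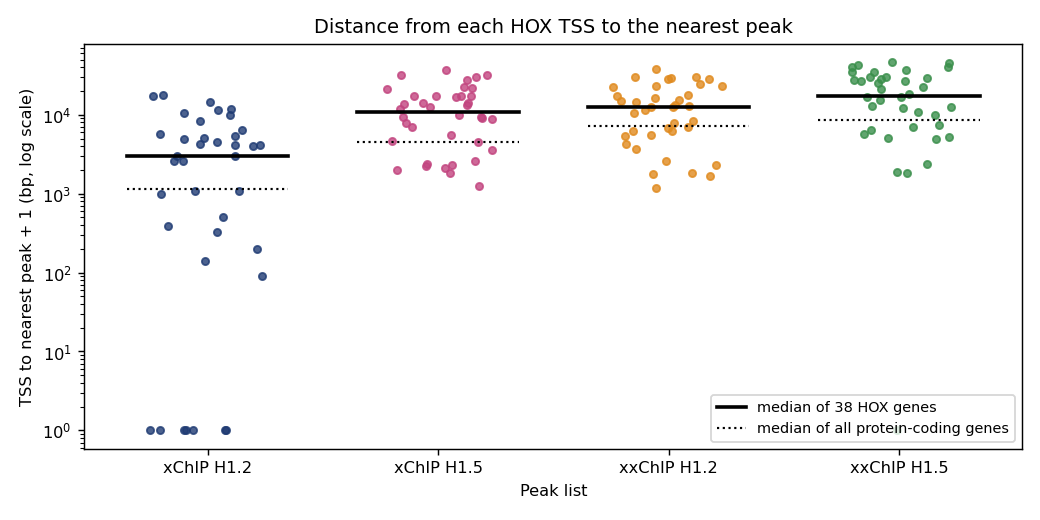
Distance from the TSS of each of the 38 HOX genes (points) to the nearest peak of each list, on a log axis in bp after adding 1; the solid bar is the HOX median and the dotted bar the median of all protein-coding genes. The HOX median lies above that of all genes in every list (2992 against 1144 bp for xChIP H1.2), and the points at the bottom are the TSS inside a peak.

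In steps of 500 bp, xChIP H1.5 covered no base of any HOX gene from 1500 bp before to 1000 bp after the TSS. In CpG-rich promoters xChIP H1.5 was lowest, at 8.64%, in the 500 bp after the TSS, and stood at 18.9% at the far upstream end. HOX genes had 3.89% at that upstream end and up to 11.6% within the 5 kb downstream. For xChIP H1.2 the HOX genes had 15.7% in the 500 bp after the TSS, against 40.2% in CpG-rich promoters, and 22.2% in the 500 bp before it, against 40.9%. For xxChIP H1.2 the HOX genes had 8.97% between 3000 and 2500 bp upstream, close to the 9.36% of CpG-rich promoters, and 0% from 1500 bp before to 1000 bp after the TSS, where CpG-rich promoters had 0.673% to 4.17%. Neighboring HOX genes share peaks and upstream sequence, so the genes are not independent points.

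**Figure D5:**
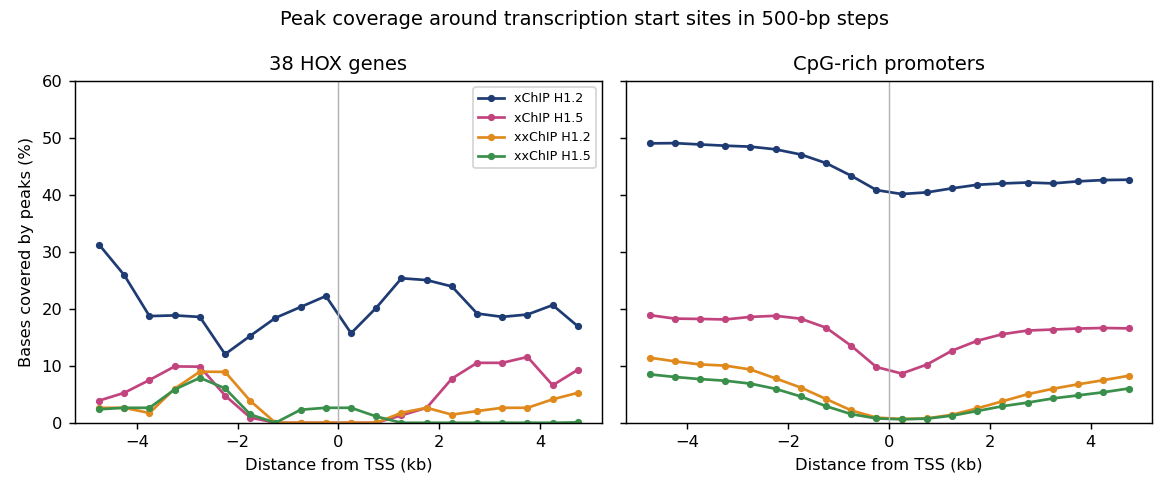
Share of bases covered by peaks (y axis, %) in 500-bp steps from 5 kb before to 5 kb after the TSS (x axis, kb) for the 38 HOX genes (left) and for 9433 CpG-rich promoters (right), with 1 line per list. xChIP H1.5 is at 0 around the HOX TSS and at 8.64% just after the TSS of CpG-rich promoters, and xChIP H1.2 is lower for HOX genes throughout (15.7% against 40.2% just after the TSS).

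HOX gene bodies, like the promoters, were covered mainly by xChIP H1.2. At least 50% of the gene body was covered by xChIP H1.2 in 7 of 38 HOX genes (31% of all genes) and by xChIP H1.5 in 0 (4.88%). For xxChIP this was so in 1 gene, HOXC9, with H1.2 (2.2%) and in 0 with H1.5 (1.8%). The 7 for xChIP H1.2 were HOXA10, HOXB1, HOXB8, HOXC8, HOXC10, HOXD8 and HOXD9, of which HOXC10 reached 93.8% and HOXD9 91.0%. Any base of the body was covered in 19 HOX genes by xChIP H1.2 (82.9% of all genes), and in 11 by xChIP H1.5 (70.3%). It was covered by xxChIP in 8 with H1.2 (60.6%) and in 2 with H1.5 (58%). HOX gene models have a median length of 4218 bp and all protein-coding genes 27256 bp, and a short gene has fewer bases for a peak to meet. In 11 HOX genes, HOXA4, HOXA5, HOXA7, HOXA11, HOXB2, HOXB5, HOXC11, HOXD1, HOXD10, HOXD12 and HOXD13, no base of window or body lay under any list, against 6.97% of all genes. Among genes shorter than 10 kb it was 10 of 30 HOX genes and 24.4% of all 5235, a length limit chosen after seeing the data. Coding bases of HOX genes, 35468 bp in all, were covered by xChIP to 18.9% with H1.2 and 3.18% with H1.5, and by xxChIP to 3.63% with H1.2 and 1.81% with H1.5. Over the coding bases of all protein-coding genes the shares were 27.4% and 9.62% for xChIP, and 6.49% and 5.46% for xxChIP (H1.2, H1.5).

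The annotated start bears on these counts, since HOXA3, HOXB3, HOXB7, HOXC4, HOXC6 and HOXD3 have long gene models that begin far upstream of their coding exons. The annotated start of HOXA9 lies inside the HOXA10 gene model. Counting any annotated start within 1000 bp of a peak, 18 HOX genes were overlapped by xChIP H1.2 (65% of all genes) and 4 by xChIP H1.5 (42.4%). By the same count xxChIP overlapped 3 with H1.2 (27.6%) and 2 with H1.5 (25.3%). HOXA13, HOXB3, HOXC4 and HOXD3 were the 4 for xChIP H1.5, and HOXB7, HOXC9 and HOXD11 were the 3 for xxChIP H1.2. With windows of 2500 bp on each side of the gene start, the xChIP counts were 16 (61.9%) with H1.2 and 7 (36.3%) with H1.5, and the xxChIP counts 5 (21.2%) and 4 (18.6%). In both forms the HOX share was below that of all genes in every list.

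Most cluster peaks of every list lay away from HOX promoter windows, and the lists other than xChIP H1.2 had lower median GC. Neither the share of all peaks at promoters nor their GC content was computed over the genome. The part of the clusters that lies inside promoter windows was not computed either, so these counts have no expected value beside them. Of the 37 xChIP H1.2 peaks in the clusters, 12 overlapped a HOX promoter window, and their median GC content over all 37 was 52.4%. Of the 17 xChIP H1.5 peaks none did, with a median GC of 46.3%. Of the 9 xxChIP H1.2 peaks none did (47.6%), and of the 9 xxChIP H1.5 peaks 1 did (46.5%). These 2 stretches show the peak of xxChIP H1.2 and that of xChIP H1.5 closest to any HOX TSS, at 1166 bp and 1251 bp, with 300 bases each on the + strand at the middle of the named interval, with CG dinucleotides in capitals.
Segment shared by xChIP H1.2 and xxChIP H1.2 in the HOXD11 intron, chr2:176970354-176970653 (+ strand): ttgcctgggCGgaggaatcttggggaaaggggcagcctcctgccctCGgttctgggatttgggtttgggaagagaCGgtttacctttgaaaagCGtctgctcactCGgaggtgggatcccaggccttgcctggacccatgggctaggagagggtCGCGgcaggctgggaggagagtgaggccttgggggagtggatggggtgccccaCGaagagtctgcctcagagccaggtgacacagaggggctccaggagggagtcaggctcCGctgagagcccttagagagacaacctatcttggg
xChIP H1.5 peak in the HOXC13 intron, chr12:54334263-54334562 (+ strand): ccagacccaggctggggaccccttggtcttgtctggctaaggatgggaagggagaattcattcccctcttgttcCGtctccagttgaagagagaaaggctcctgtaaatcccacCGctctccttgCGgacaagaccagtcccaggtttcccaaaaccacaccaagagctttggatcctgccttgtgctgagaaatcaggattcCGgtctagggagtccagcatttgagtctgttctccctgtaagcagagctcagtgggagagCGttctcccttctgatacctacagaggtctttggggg
The stretch in HOXD11 held 9 CG dinucleotides at a GC content of 62.0%, and that in HOXC13 held 5 at 54.0%. The xxChIP H1.2 peak in HOXD11 had the highest GC content of its list in the clusters, 59.7%. The HOXD11 segment, 789 bp at chr2:176970110-176970898, was the only base of HOXD under both protocols. HOXD11 acts in forearm and kidney development, and its xChIP H1.2 peak covered 24.4% of its promoter window, in the part that lies inside the gene.

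Stretches of over 10 kb within the clusters lay under no list at all. Over the genome 46.8% of bases lay under none, and the lengths of such stretches there were not measured. The longest was 20.447 kb in HOXB (chr17:46653700-46674146), with the TSS of HOXB4 and HOXB5. HOXB4 acts in blood stem cell expansion. HOXD had 16.431 kb with the TSS of HOXD9 and HOXD10, and a further 12.007 kb at its 5' end with those of HOXD11, HOXD12 and HOXD13. HOXC had 14.81 kb with the TSS of HOXC12, and HOXA had 14.326 kb with that of HOXA4. GC content was above that of the cluster in the longest stretch of HOXB (53.7% against 49.3%) and of HOXD (52.9% against 51.0%), and below it in that of HOXA (46.7% against 51.9%) and of HOXC (51.0% against 52.6%).

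The noncoding genes within the clusters ranged from fully covered to bare. Of 7 annotated miRNA genes, MIR196B (chr7:27209099-27209183, inside the HOXA9 gene model) and MIR10B (chr2:177015031-177015140, upstream of HOXD4) lay wholly under xChIP H1.2 peaks, and no base of any of the 7 lay under another list. The shares over all miRNA genes were not computed, and xChIP H1.2 peaks covered 26.4% of known sequence. The counts are therefore not a result about these miRNA genes. MIR196A1 in HOXB and MIR196A2 in HOXC lay under no peak, although an xChIP H1.2 peak overlapped 79 bp of the window around the MIR196A2 start. The miR-196 genes are known to target HOX transcripts. Of the 7, 6 matched the RefSeq table by symbol, and the mature sequences below, with the seed (bases 2 to 8) in capitals, show that the covered MIR196B and the uncovered MIR196A1 and MIR196A2 share a seed, and give the 3p arm of MIR10B.
hsa-miR-196b-5p (MIR196B): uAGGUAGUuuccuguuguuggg
hsa-miR-196a-5p (MIR196A1 and MIR196A2): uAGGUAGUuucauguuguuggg
hsa-miR-10b-3p (MIR10B): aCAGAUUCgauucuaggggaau
Among long noncoding RNAs, HOXA10-AS was covered over 100% by xChIP H1.2 and HOXD-AS2 over 74.7%. HOXC-AS1 was covered over 100% by xxChIP H1.2. HOTAIR, an RNA of the HOXC cluster known for its link to Polycomb, was covered over 9.72% by xChIP H1.2 and 19.5% by xxChIP H1.5. HOTTIP, at the 5' edge of HOXA and known for its link to trithorax, was at 0% in all 4 lists.

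The relatives and regulators of the HOX genes were counted at the same promoter windows, with the shares of all genes given above (48.2%, 21.6%, 8.78% and 7.92%) for reference. Of 8 genes for TALE homeodomain cofactors, which bind DNA together with HOX proteins, xChIP peaks lay at 4 with H1.2 and at 3 with H1.5. PBX2, PBX4 and MEIS2 had 100% of the window under xChIP H1.2, whereas MEIS1, the partner of HOXA9 in leukemia, had 0% in all 4 lists. Of 8 CDX, EVX and ParaHox genes, the nearest relatives of the HOX genes by sequence or position, 0 had a peak of any list at the promoter. Of 9 Polycomb genes, xChIP peaks lay at 4 with H1.2 and at 1, EZH2, with H1.5. All 6 trithorax and DOT1L genes, KMT2A, MEN1, WDR5, ASH2L, RBBP5 and DOT1L, had 100% of the window under xChIP H1.2, and 2 of them, MEN1 and WDR5, also had xChIP H1.5 peaks there. None of these 31 genes had an xxChIP peak at the promoter.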

How the data were processed

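The 4 deposited files hold peak positions in bp (chromosome, start, end) and no score, height or read count. Per the paper's methods, the authors used Bowtie2 to place read pairs on hg19 where they mapped uniquely, found peaks with MUSIC under its defaults, and joined the 3 replicates' peaks into 1 list; tool versions are not given in the sources used here. Merging can lengthen peaks. Input samples and reads were not analysed here.

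Samples were grouped by protocol and antibody from the labels. Positions were set against the GRCh37 primary assembly and GENCODE 44 lifted to it, on chromosomes 1 to 22 and X, where every peak ended within the chromosome. Coverage was the share of bases under peaks, and overlap counted from 1 shared bp. Cluster bounds ran from the first to the last base of the HOX genes reported, flanks were 100 kb, and promoter windows 1000 bp on each side of the annotated gene start. Genome windows of cluster length were taken every 10 kb where at least 95% of bases were known. The counting was tested on simulated intervals. Of 39 genes that match the name rule, 1 is not reported here, and neither is 1 gene of the cofactor list. The members and gene lists were chosen with earlier results of these data known. Values were given in full for genes with an xChIP H1.5 or xxChIP peak at the promoter, for the highest and lowest xChIP H1.2 window of each cluster, and for HOXA9 and HOXA10; other members, neighbors and noncoding genes of the clusters were named where a count or position called for it, and those were picked after their values were seen. Mature miRNA sequences are from RefSeq (GRCh38.p14), and all other sequence is from GRCh37. With 1 merged list per group no test was run. Python 3.11.15, numpy 2.4.6, scipy 1.17.1 and matplotlib 3.10.9 were used.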

Additional observations from a re-analysis of the deposited data

How the results depend on the processing

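A value is called moved where it left the 95% Wilson interval of the reported value over 1000-bp bins, or, for a count, where it differed by over 1.5 times; of the alternative values for the main results, 54 did not move and 42 did. With only peaks of at least 2 kb, the covered share of the clusters was 21.5% and 4.15% for xChIP (H1.2, H1.5) and 1.51% for xxChIP H1.5, and with only peaks under 20 kb it was 21.6% for xChIP H1.2. With HOXB bounded by HOXB1 to HOXB9, an alternative added after seeing the data, it was 20.0% for xChIP H1.2.

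Cluster minus flanks, in percentage points, with flanks of 50 kb was -9.71 (H1.2) and -7.44 (H1.5) for xChIP, and -4.47 and -6.27 for xxChIP. With flanks of 200 kb it was -8.75 for xChIP H1.2. For xxChIP H1.5 it was -9.63 against the HOX13-side flank and -6.06 against the HOX1-side flank. With only peaks of at least 2 kb it was -4.22 (H1.2) and -4.77 (H1.5) for xxChIP. Leaving out clusters was also added after seeing the data. Without HOXA it was -3.92 and -5.40 for xChIP (H1.2, H1.5), and -9.65 for xxChIP H1.5. Without HOXB it was -15.6 for xChIP H1.5 and -10.3 for xxChIP H1.2. Without both it was -2.44 and -6.44 for xChIP, and -11.2 and -12.6 for xxChIP. The sign turned in single clusters, where the cause was not tested: against the HOX1-side flank it was 20.7 in HOXB and -4.15 in HOXC for xChIP H1.2, and 1.07 in HOXB and -3.04 in HOXD for xChIP H1.5. With flanks of 200 kb it was -2.33 in HOXC for xChIP H1.2 and -4.98 in HOXD for xChIP H1.5, and with flanks of 50 kb it was 1.05 in HOXA for xxChIP H1.5.

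Of the HOX promoter counts, that of xChIP H1.2 was 7 where at least 50% of the window had to be covered, as was that of xChIP alone, and 9 with only peaks of at least 2 kb, which also left 0 for xxChIP H1.5. Windows of 2500 bp on each side gave 7 for xChIP H1.5, and 5 and 4 for xxChIP (H1.2, H1.5), with 6 genes under xxChIP alone, 1 under both protocols and 11 under neither. Any annotated start gave 4, 3 and 2. Gene body counts were 19, 11, 8 and 2 for any base, and at 90% of the body 4 for xChIP H1.2 and 0 for xxChIP H1.2.

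No paired analysis was possible because each list is a single merge of its replicates. For the same reason leaving out a replicate was not possible. The lists carry no depth, so a region without a peak cannot be told apart from a region with too few reads to call one.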
